A study of Mus musculus with 31 samples.

Results

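S100a10, also called p11, and 8 of its partners and relatives were followed across every group of a mouse translatome study of dopamine receptor neurons. The members were taken by gene symbol from the platform's probe gene table: S100a10, its binding partners Anxa2, Ahnak and Hltf, and 6 S100 relatives, 10 genes in all. Of these, 9 have a feature among the 16345 on the array, with 1 feature each, and S100a16 has none that the table names. S100a10 was chosen by its measured signal, which was higher in old than in young arrays of striatal Drd1a cells. Every S100a10 difference that compares those arrays is therefore given as a description, with no test. The other S100a10 tests use a spread shared by all groups, and those arrays enter it, with an SD of 0.70 in the old ones.

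S100a10 is an S100 protein that has lost calcium binding and pairs with annexin A2, the product of Anxa2, in a membrane-bound complex. The complex carries receptors and channels to the cell surface, among them the serotonin receptors encoded by Htr1b and Htr4, and in mice its level in the forebrain has been tied to depression-like behaviour and to the response to antidepressants. Ahnak encodes a giant scaffold protein that joins the complex and interacts with L-type calcium channels. Hltf encodes SMARCA3, a chromatin remodelling factor that the complex binds.

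The RNA came from translating ribosome affinity purification, in which tagged ribosomes of a marked cell type are pulled down and the bound messages are read on an exon array. The purified cells were those with the dopamine receptor Drd1a, whose gene the platform lists as Drd1, or with Drd2. The source was the whole cortex or the striatum, and the mice were aged 6 weeks (young) or 2 years (old). This gave 31 arrays in 8 groups: young and old striatum Drd1a, young and old striatum Drd2, young and old cortex Drd1a, and young and old cortex Drd2, with 4 arrays in each except young striatum Drd1a, which held 3. No treatment was given. The driver line of the ribosome tag, the strain, the sex and any pooling of animals are not stated in the labels. Nothing says that replicates are different mice, and each p-value then covers only the spread among these arrays, which may be technical. The number of arrays limits the precision. Every value below is a log2 signal relative to the median of that feature over the arrays, so a 0 is the feature's own middle value and levels of different genes cannot be compared.

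The receptor genes followed the labels at both ages, but Drd1 was higher in old than in young Drd2 arrays of both regions, without overlap. Drd1 lay between 1.56 and 1.86 in striatal Drd1a arrays, between -3.13 and -2.50 in young striatum Drd2 arrays and between -0.58 and 0 in old striatum Drd2 arrays. In cortex Drd2 arrays it lay between -2.93 and -2.87 in young and between -1.90 and -0.76 in old mice. Drd2 lay between 0.46 and 0.64 in striatal Drd2 arrays and between -4.22 and -2.90 in striatal Drd1a arrays. The median over all features ran from -0.072 to 0.134 among the arrays and exceeded 0.05 on 6 of them: young striatum Drd2 replicate 4, young striatum Drd1a replicate 3, and in the old mice cortex Drd2 replicate 1, cortex Drd1a replicate 4, striatum Drd2 replicate 3 and striatum Drd1a replicate 2. No 2 arrays held identical values.

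Most of the S100 members lie in a cluster on mouse chromosome 3, and S100a1 and S100a13 start from the same stretch of DNA in opposite directions. The RefSeq start sites used for their promoter windows (build GRCm38.p6) lie 105 bases apart, at position 90514330 for S100a1 and 90514435 for S100a13, and the 300-base promoter windows of both genes, which run from 250 bases before to 50 bases after the start, share the 204 bases at chr3:90514281-90514484. The RefSeq interval of S100a13, on the plus strand, begins further back at 90514233, inside S100a1, and the window of that start is not shown. The shared stretch is shown on the plus strand because both genes had their highest group mean in old cortex Drd1a arrays. The windows of S100a6 (chr3:90612644-90612943, plus strand) and Anxa2 (chr9:69453433-69453732, plus strand) are shown because both genes differed between cell types. A search of both strands used 4 short motifs: the GC box GGGCGG, found in 35.7% of 32851 RefSeq promoter windows of the same length, the TATA box TATAAA, found in 13.6%, the cyclic AMP element half-site TGACG, found in 20.8%, and the AP-1 site TGANTCA, found in 7.81%. Matches are in capitals.
S100a1 and S100a13 shared: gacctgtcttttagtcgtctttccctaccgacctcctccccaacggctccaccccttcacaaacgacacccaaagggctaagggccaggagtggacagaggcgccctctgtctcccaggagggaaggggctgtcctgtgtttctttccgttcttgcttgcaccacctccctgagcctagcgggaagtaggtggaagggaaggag
S100a6: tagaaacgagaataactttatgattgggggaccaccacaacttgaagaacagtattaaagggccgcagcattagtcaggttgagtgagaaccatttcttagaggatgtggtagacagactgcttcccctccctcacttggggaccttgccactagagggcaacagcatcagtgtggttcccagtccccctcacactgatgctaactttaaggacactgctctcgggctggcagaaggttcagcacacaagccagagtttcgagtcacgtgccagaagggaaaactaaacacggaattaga
Anxa2: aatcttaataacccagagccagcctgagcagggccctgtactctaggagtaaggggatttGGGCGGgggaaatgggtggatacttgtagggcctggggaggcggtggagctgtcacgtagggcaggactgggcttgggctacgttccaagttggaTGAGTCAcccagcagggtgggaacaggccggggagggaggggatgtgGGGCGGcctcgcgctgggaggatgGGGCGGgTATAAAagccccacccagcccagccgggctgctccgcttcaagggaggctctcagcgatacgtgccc
None of the 4 motifs occurs in the shared stretch or in the S100a6 window, whereas the Anxa2 window holds 3 GC boxes, 1 TATA box and 1 AP-1 site. The table holds 9 of the 10 genes and none for S100a10. A match is a description of these letters and not of a bound factor.

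S100a10 had its lowest signal in young striatum Drd1a arrays and its highest in old striatum Drd2 arrays. In young striatum Drd1a arrays the values were -1.39, -1.39 and -1.69, a mean of -1.49 ± 0.17 (SD, n = 3). In old striatum Drd2 arrays they were 1.06, 0.89, 0.88 and 0.68, a mean of 0.88 ± 0.16 (SD, n = 4). Between these ends the group means stood, from low to high, in the order young cortex Drd2 (-0.37), young cortex Drd1a (-0.19), young striatum Drd2 (-0.060), old striatum Drd1a (0.0061), old cortex Drd1a (0.067) and old cortex Drd2 (0.35). Neighbours in this order had overlapping arrays in every case except at the ends, where young striatum Drd1a lay below young cortex Drd2 and old striatum Drd2 lay above old cortex Drd2. In this bulk RNA, fewer cells of a type and less RNA per cell cannot be told apart.

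**Figure D1:**
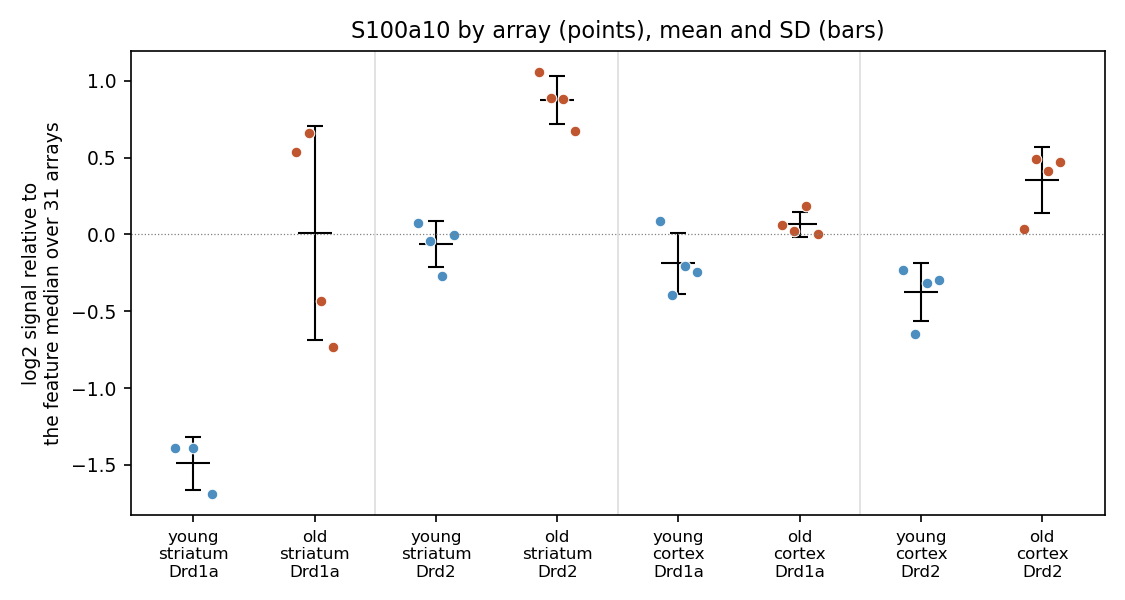
S100a10 on each of the 31 arrays, as log2 signal relative to the feature median, by age, region and cell type. Points are arrays (blue young, red old), and bars give the mean and SD of each group. The 3 young striatum Drd1a arrays lie between -1.69 and -1.39, below all others, and the 4 old striatum Drd1a arrays spread from -0.74 to 0.66.

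In striatal Drd1a cells the S100a10 signal was 2.82-fold higher in old than in young arrays (95% interval of the log2 difference 1.06 to 1.93). This is the comparison that chose the gene and it is given without a test. Neither the interval nor the range with arrays left out allows for that choice. The old arrays were far apart, at 0.53, 0.66, -0.43 and -0.74, a mean of 0.0061 ± 0.70 (SD, n = 4). Replicates 1 and 2 lay above all 4 old cortex Drd2 arrays and replicates 3 and 4 below all 4 young cortex Drd1a arrays, yet all 4 lay above every young striatum Drd1a array. Ependymal and choroid plexus markers, of which 4 were measured, had a mean of 1.43 in replicate 2 and of -0.06, -0.02 and -0.16 in replicates 1, 3 and 4. Their part in the result was not tested. The difference was 1.28 at the least and 1.74 at the most when any 1 array was left out.

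In striatal Drd2 cells S100a10 rose with age. The young arrays held 0.076, -0.042, -0.27 and -0.0030, and the old arrays 1.06, 0.89, 0.88 and 0.68, so the groups did not overlap. The rise was 0.94 log2 units (SE 0.20), or 1.91-fold, with an adjusted p of 0.0030 (limma, all 31 arrays, Benjamini-Hochberg over 16345 features). A feature is called changed where this adjusted p is under 0.05 and the change is at least 1.2-fold. Leaving out any 1 array gave rises from 0.87 to 1.00, with an adjusted p of at most 0.014.

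In cortical Drd2 cells S100a10 rose as well, by 0.73 log2 units (SE 0.20), or 1.65-fold, with an adjusted p of 0.0313 in limma. The young arrays held -0.23, -0.65, -0.32 and -0.29 and the old arrays 0.033, 0.49, 0.41 and 0.47. All old arrays lay above all young arrays, and old replicate 1 was the lowest of its group. The call was lost without any of replicates 2, 3 and 4 of either age, with rises from 0.63 to 0.75 and limma adjusted p from 0.0557 to 0.123.

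In cortical Drd1a cells the S100a10 difference was 0.26 log2 units (95% interval -0.14 to 0.66, limma adjusted p = 0.755) and was not called. The young arrays held 0.087, -0.39, -0.21 and -0.25 and the old arrays 0.063, 0.021, 0.18 and 0, so 1 young array lay above 3 old ones. The age change in cortical Drd1a cells was 0.47 log2 units lower than that in cortical Drd2 cells (SE 0.28, 95% interval -1.04 to 0.10), with a limma adjusted p of 0.731 for the interaction. Between striatal and cortical Drd2 cells the age change differed by 0.21 (95% interval -0.36 to 0.78, limma adjusted p = 1.00). Neither difference between age changes was called. The age change in striatal Drd1a cells exceeded that in striatal Drd2 cells by 0.56 and that in cortical Drd1a cells by 1.24, given as descriptions.

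S100a10 signal was lower in Drd1a than in Drd2 arrays of striatum, and no difference between the cell types was called in cortex. Its signal was 1.43 log2 units lower in young striatum Drd1a than in young striatum Drd2 arrays and 0.87 lower in the old arrays, both given as descriptions, and the arrays did not overlap at either age. In young cortex the difference, Drd1a minus Drd2, was 0.18 (95% interval -0.21 to 0.59, limma adjusted p = 0.752), and in old cortex it was -0.28 (95% interval -0.68 to 0.12, limma adjusted p = 0.449). Between regions, the signal in young striatum Drd1a arrays was 1.30 log2 units below that in young cortex Drd1a arrays, and in the old arrays the same difference was -0.061. In Drd2 cells the difference, striatum minus cortex, was 0.31 in young arrays (95% interval -0.086 to 0.71, limma adjusted p = 0.427) and 0.52 in old arrays (95% interval 0.12 to 0.92, limma adjusted p = 0.0774). The last was called with quantile normalization (0.73, adjusted p = 0.0366) and with only the compared arrays in the fit (adjusted p = 0.0265).

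Across the members, few age changes were called and all of them were rises. In striatal Drd2 cells 2 of 9 members were called, S100a10 and S100a6, where 5.70% of all features were called. In cortical Drd2 cells 3 of 9 were called, S100a10, Anxa2 and Hltf, against 3.63% of all features. In cortical Drd1a cells 1 of 9 was called, S100a6, against 0.453% of all features. In striatal Drd1a cells 3.43% of all features were called. No member is counted there, because that comparison chose S100a10. The median difference of the 9 members was 0.30 in striatal Drd2, 0.12 in cortical Drd1a and 0.14 in cortical Drd2 cells, beside -0.0084, 0.039 and -0.023 over all features. The age change differed between cortical Drd1a and Drd2 cells for 0 of 9 members, with 3 at an unadjusted p under 0.05 and 0.104% of all features called, and between striatal and cortical Drd2 cells for 0 of 9, with 1 at an unadjusted p under 0.05 and 0.0184% of all features called.

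**Figure D2:**
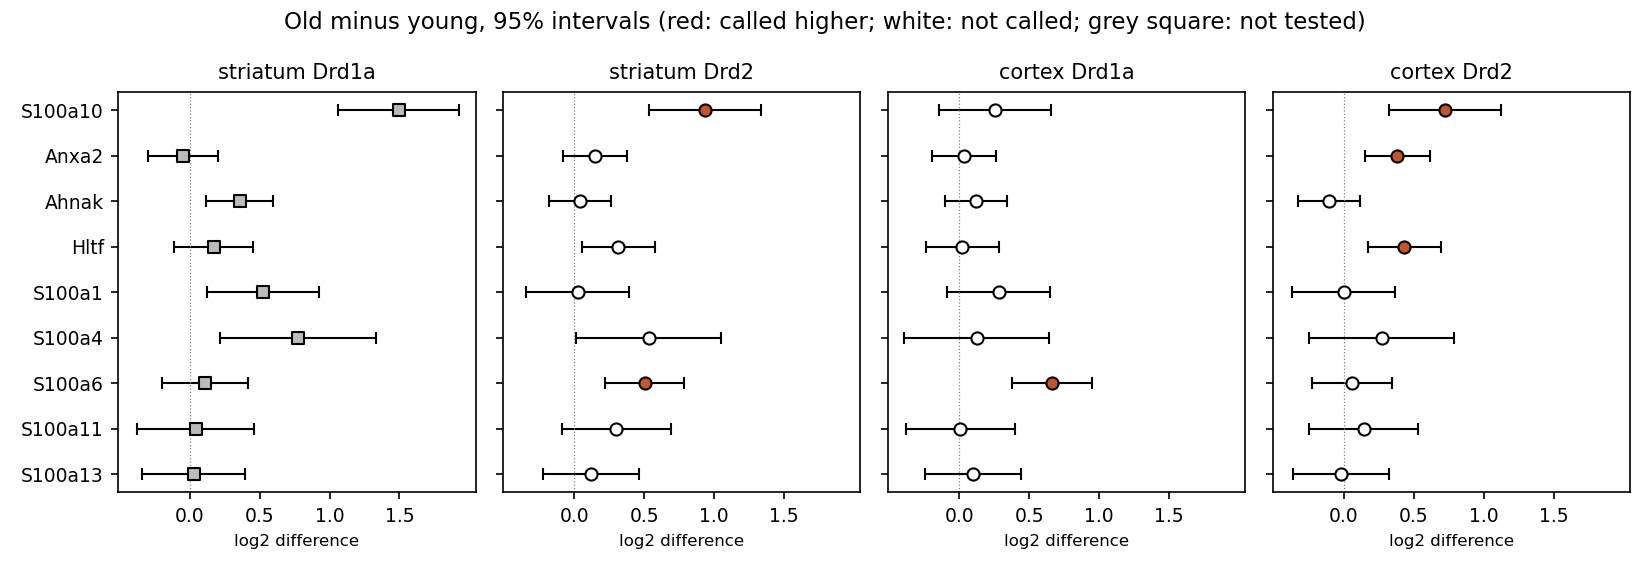
Log2 difference between old and young arrays for the 9 members in each region and cell type, with 95% intervals from the limma fit. Filled red circles are called rises, open circles were not called, and grey squares are the striatal Drd1a comparison, given as a description. The intervals of the grey squares do not allow for the choice of S100a10 by this comparison and are not tests. Of the 3 tested panels, S100a10 has the largest difference of the 9 in striatum Drd2 and cortex Drd2, and S100a6 has it in cortex Drd1a at 0.66.

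Marker genes of other cell types differed with age in the same arrays. Of all features 5.70% were called with age in striatal Drd2, 0.453% in cortical Drd1a and 3.63% in cortical Drd2 arrays. In striatal Drd2 arrays 4 of 9 astrocyte markers rose, among them Gfap (0.74) and S100b (0.60, calls lost without any of 7 and of 4 of the 8 arrays), and their mean level ran from -0.62 to -0.38 in young and from -0.25 to -0.08 in old arrays. In cortical Drd2 arrays 3 of 9 rose, and the mean ran from -0.17 to 0.12 in young and from 0.14 to 0.92 in old arrays. Of 9 oligodendrocyte markers 2 rose in striatal Drd2, 4 in cortical Drd2 and 3 in cortical Drd1a arrays, among them Trf, which rose by 1.53, 2.20 and 1.38 in that order. Of 8 direct pathway markers, genes of the Drd1a cells, 6 rose in striatal Drd2 and 4 in cortical Drd2 arrays, with means from -1.38 to -1.18 in young and -0.29 to -0.05 in old striatum Drd2 arrays. Of 6 cholinergic interneuron markers 1 rose in striatal Drd2 arrays (Isl1, 0.70, which direct pathway cells also express) and 1 in cortical Drd2 arrays (Slc5a7, the choline transporter, 0.78), calls lost without any of 6 and of 2 of the 8 arrays. Their mean ran from -0.04 to 0.16 in young and from 0.33 to 0.51 in old striatum Drd2 arrays, without overlap, and from -0.21 to 0.14 and from -0.10 to 0.56 in cortex Drd2 arrays. Of 6 markers of layer 5 output neurons 0 were called by limma in cortical arrays, with 2 at an unadjusted p under 0.05 in each cell type. Of 8 endothelial, 10 mural and fibroblast and 4 ependymal and choroid plexus markers 0 were called by limma with age, and at most 2 of a list had an unadjusted p under 0.05 in any age comparison. Of 10 microglial markers 0 rose and 1 fell (Cd68, -0.55 in striatal Drd2 arrays). No marker can be read as absent, since the values hold no absolute level, and the part of these cells in the members' changes was not tested.

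Anxa2, the annexin that forms the complex with S100a10, was higher in cortical Drd1a arrays than in most others. The values were 0.44, 0.39, 0.24 and 0.18 in young and 0.36, 0.27, 0.43 and 0.32 in old cortex Drd1a arrays, against -0.23, -0.059, 0.028 and -0.16 in young cortex Drd2 arrays. At 6 weeks the 2 cortical groups did not overlap, and Anxa2 was 0.42 log2 units (SE 0.11) higher in Drd1a than in Drd2 arrays (limma adjusted p = 0.0108). In striatum the arrays lay between -0.33 and 0.063 in all 4 groups. Anxa2 was lower in striatum than in cortex in Drd1a cells, by 0.43 in young arrays (limma log2 difference -0.43, adjusted p = 0.0089) and by 0.51 in old arrays (-0.51, adjusted p = 0.0011), and neither pair of groups overlapped. The young call was lost without young striatum Drd1a replicate 2 (-0.39, limma adjusted p = 0.0506).

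With age Anxa2 rose in cortical Drd2 cells by 0.38 log2 units (SE 0.11, limma adjusted p = 0.0488). The old arrays held 0.80, 0.25, 0.070 and 0, so replicate 1 carried much of the difference and the lowest old array lay below the highest young one. Without old replicate 1 the difference was 0.21 (adjusted p = 0.254). The call was also lost without any 1 of the 4 young arrays or old replicate 2, with adjusted p from 0.0610 to 0.127. The astrocyte marker mean had the same order over the 4 old arrays, 0.92, 0.64, 0.34 and 0.14. So did the oligodendrocyte marker mean, 0.80, 0.54, 0.39 and 0.21, and the GABAergic interneuron marker mean, 0.38, 0.18, 0.17 and 0.05. The mean of the layer 5 output neuron markers had this order too, -0.06, -0.08, -0.15 and -0.19. That of the indirect pathway markers, genes of the Drd2 cells, had the reverse order, 0.11, 0.13, 0.30 and 0.50. The remaining marker lists had other orders. Old replicate 1 also had a raised median over all features, 0.087. The part of any of these in the Anxa2 change was not tested. Anxa2 and S100a10 had a Pearson r of 0.18 over the 31 arrays, 0.27 over the 8 group means and -0.00068 over deviations from the group means, a description of arrays that share a normalization.

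**Figure D3:**
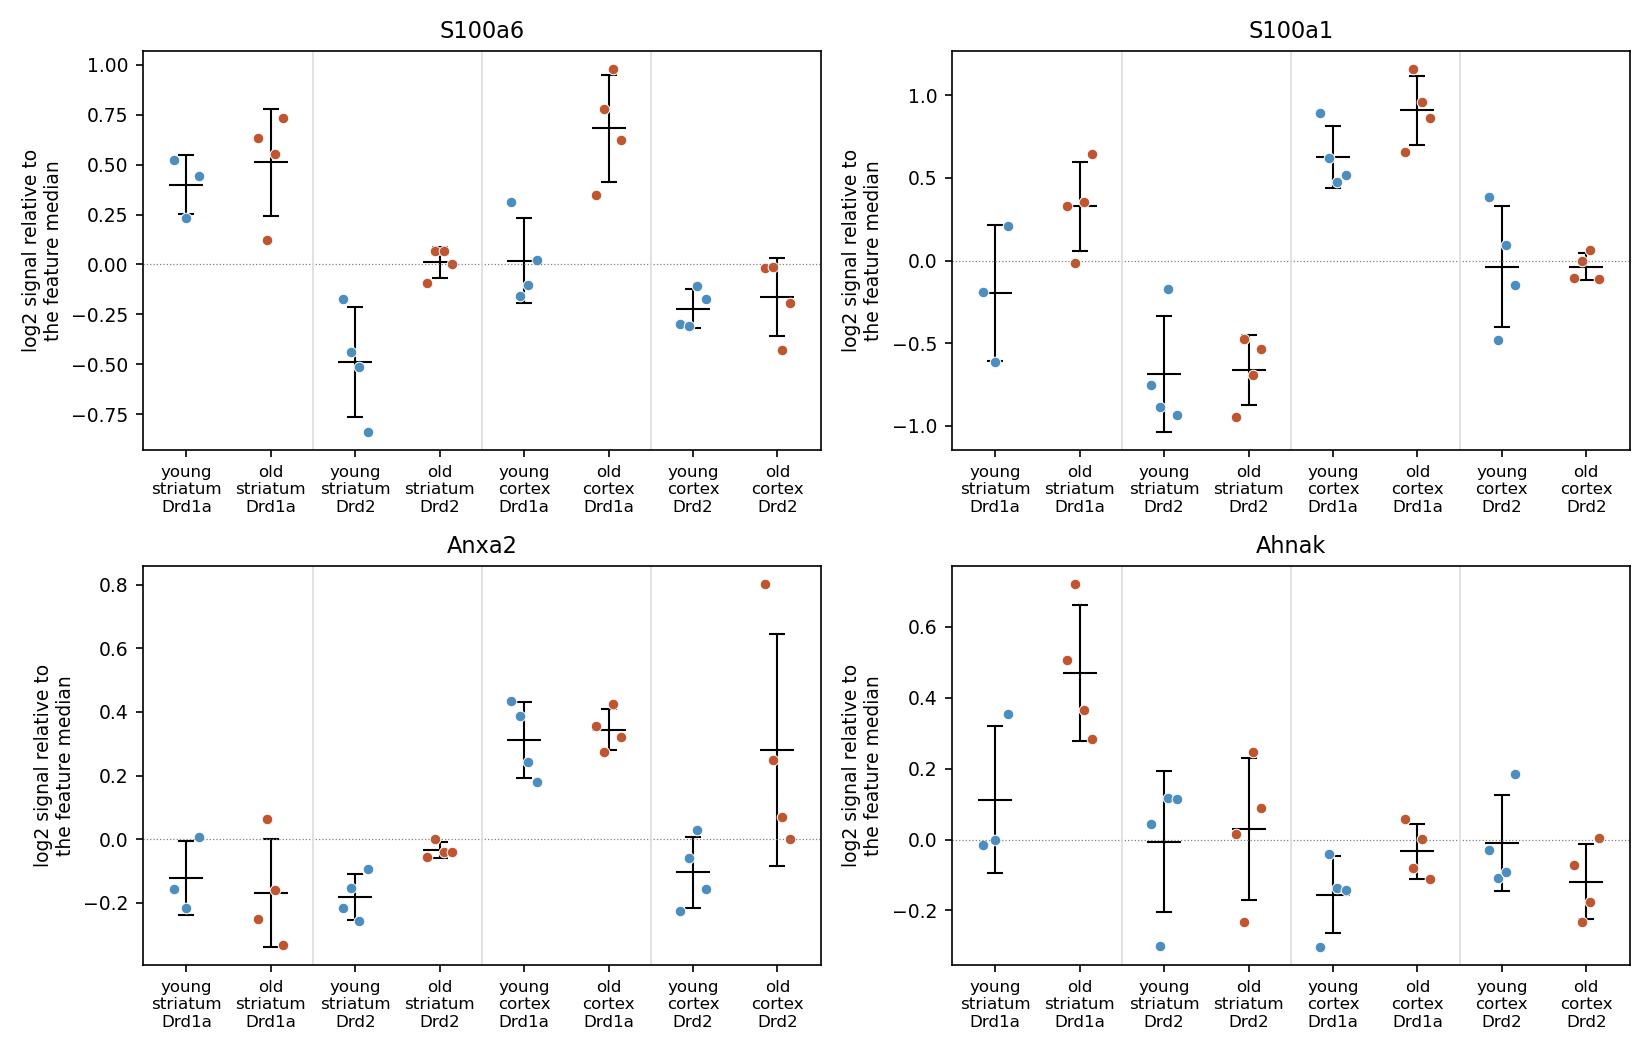
S100a6, S100a1, Anxa2 and Ahnak on each array, as log2 signal relative to each feature's median. Points are arrays (blue young, red old) and bars the mean and SD of each group. S100a1 is above 0.47 on all 8 cortex Drd1a arrays, Anxa2 reaches 0.80 on 1 old cortex Drd2 array, and Ahnak is highest in old striatum Drd1a.

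Ahnak, the scaffold of the complex, had its highest signal in old striatum Drd1a arrays, at 0.51, 0.72, 0.37 and 0.28. Old striatum Drd2 arrays held 0.017, -0.23, 0.25 and 0.090, and old cortex Drd1a arrays 0.059, -0.081, 0.0016 and -0.11, so old striatum Drd1a overlapped neither. Ahnak was 0.44 log2 units (SE 0.11) higher in old striatum Drd1a than in old striatum Drd2 arrays (limma adjusted p = 0.0185), a call lost without Drd2 replicate 2 (0.35, adjusted p = 0.113), Drd1a replicate 1 (0.43, adjusted p = 0.0527) or Drd1a replicate 2 (0.35, adjusted p = 0.0850). It was 0.50 log2 units (SE 0.11) higher in striatum than in cortex in old Drd1a cells (limma adjusted p = 0.0010), and this call held when any 1 array was left out. With age Ahnak differed by 0.36 (SE 0.12) in striatal Drd1a cells, given as a description, and its differences in the other 3 age comparisons lay between -0.11 and 0.12.

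Hltf, whose product is a chromatin factor bound by the complex, was called in 1 comparison. In cortical Drd2 cells it rose with age by 0.43 log2 units (SE 0.13, limma adjusted p = 0.0491). The young arrays held -0.092, -0.042, -0.19 and -0.13, and the old arrays 0.44, 0.44, -0.042 and 0.44, so 3 old arrays lay above the young ones and replicate 3 lay among them. The call was lost without any 1 of the other 7 arrays, with rises from 0.39 to 0.46 and adjusted p from 0.0787 to 0.173. In striatal Drd2 cells Hltf differed by 0.31 with age (95% interval 0.054 to 0.57, limma adjusted p = 0.164).

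S100a6, which encodes the calcium-binding protein calcyclin, was called higher in Drd1a than in Drd2 arrays in 3 of the 4 pairs of one region and age. In young striatum the Drd1a arrays held 0.52, 0.23 and 0.44 and the Drd2 arrays -0.17, -0.44, -0.51 and -0.84, a difference of 0.89 (SE 0.15, limma adjusted p = 0.0004) between groups that did not overlap. In old cortex the Drd1a arrays held 0.35, 0.78, 0.98 and 0.62 and the Drd2 arrays -0.018, -0.013, -0.43 and -0.19, a difference of 0.84 (SE 0.14, limma adjusted p = 0.0002). Both calls held when any 1 array was left out. In old striatum the Drd1a arrays held 0.63, 0.12, 0.55 and 0.74 and the difference was 0.50 (SE 0.14, limma adjusted p = 0.0439), lost without any array except Drd1a replicate 2, with differences from 0.43 to 0.52 and adjusted p from 0.0735 to 0.171. In young cortex it was 0.24 (95% interval -0.045 to 0.53, limma adjusted p = 0.350).

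S100a6 was called with age in 2 groups, as was S100a10. In cortical Drd1a cells it rose by 0.66 log2 units (SE 0.14, limma adjusted p = 0.0240) from young values of 0.32, -0.16, -0.11 and 0.023, and the groups did not overlap. In striatal Drd2 cells it rose by 0.50 (SE 0.14, limma adjusted p = 0.0257), from the young values given above to -0.094, 0.065, 0.069 and 0, again without overlap. The cortical call was lost without any of replicates 2, 3 and 4 of either age (0.56 to 0.68, adjusted p 0.0595 to 0.0926). The striatal call was lost without young replicates 3 or 4 or old replicates 2, 3 or 4 (0.38 to 0.50, adjusted p 0.0528 to 0.112). With quantile normalization the 2 rises were 0.48 (adjusted p = 0.296) and 0.40 (adjusted p = 0.127), and with arrays centred on their medians 0.63 (adjusted p = 0.0786) and 0.51 (adjusted p = 0.0549). In cortical Drd2 cells the difference was 0.059 (95% interval -0.23 to 0.34).

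S100a1, a calcium sensor best known from heart and skeletal muscle, had the largest difference between the cell types among the tested members in every pair except young striatum. In old cortex the Drd1a arrays held 0.66, 1.16, 0.96 and 0.86 and the Drd2 arrays -0.10, 0, 0.064 and -0.11, a difference of 0.95 (SE 0.18, limma adjusted p = 0.0010). In old striatum the Drd1a arrays held 0.33, -0.015, 0.36 and 0.64 and the Drd2 arrays -0.95, -0.47, -0.69 and -0.54, a difference of 0.99 (SE 0.18, limma adjusted p = 0.0009). Neither pair overlapped, and both calls held when any 1 array was left out. In young cortex the difference was 0.66 (SE 0.18, limma adjusted p = 0.0114), lost without Drd2 replicate 2 (0.52, adjusted p = 0.0723) or Drd1a replicate 1 (0.58, adjusted p = 0.0576). In young striatum it was 0.49 (95% interval 0.092 to 0.89, limma adjusted p = 0.222).

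Cortex held more S100a1 signal than striatum in all 4 region comparisons. The difference, striatum minus cortex, was -0.82 in young Drd1a (limma adjusted p = 0.0021), -0.58 in old Drd1a (adjusted p = 0.0214), -0.65 in young Drd2 (adjusted p = 0.0201) and -0.63 in old Drd2 cells (adjusted p = 0.0188). The young Drd1a call held when any 1 array was left out. The old Drd1a call was lost without cortex replicates 2 or 3 or striatum replicate 2 (-0.57 to -0.47, adjusted p 0.0502 to 0.0841) and with quantile normalization (-0.29, adjusted p = 0.344). The old Drd2 call was lost without striatum replicate 1 (-0.53, adjusted p = 0.0637). The young Drd2 call was lost without cortex replicates 1 or 3 or striatum replicates 1, 2 or 4 (-0.63 to -0.51, adjusted p 0.0549 to 0.115).

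Counted over the members, Drd1a arrays were higher in each call between the cell types. In young cortex 2 of 9 members were higher in Drd1a arrays, Anxa2 and S100a1, against 12% of all features called in either direction. In old cortex 2 of 9 were, S100a1 and S100a6, against 6.48%. In striatum, leaving S100a10 aside, 1 of 8 was higher in young arrays, S100a6, against 3.05%, and 3 of 8 in old arrays, Ahnak, S100a1 and S100a6, against 2.81%. Between regions, leaving S100a10 aside in Drd1a cells, 3 of 8 members were lower in striatum in young Drd1a cells, Anxa2, S100a1 and S100a4, against 19.0% of all features called. In old Drd1a cells 2 of 8 were lower, Anxa2 and S100a1, and Ahnak was higher, against 16.1%. In Drd2 cells S100a1 alone of 9 was called, lower in striatum, at both ages, against 7.58% in young and 11.3% in old arrays.

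**Figure D4:**
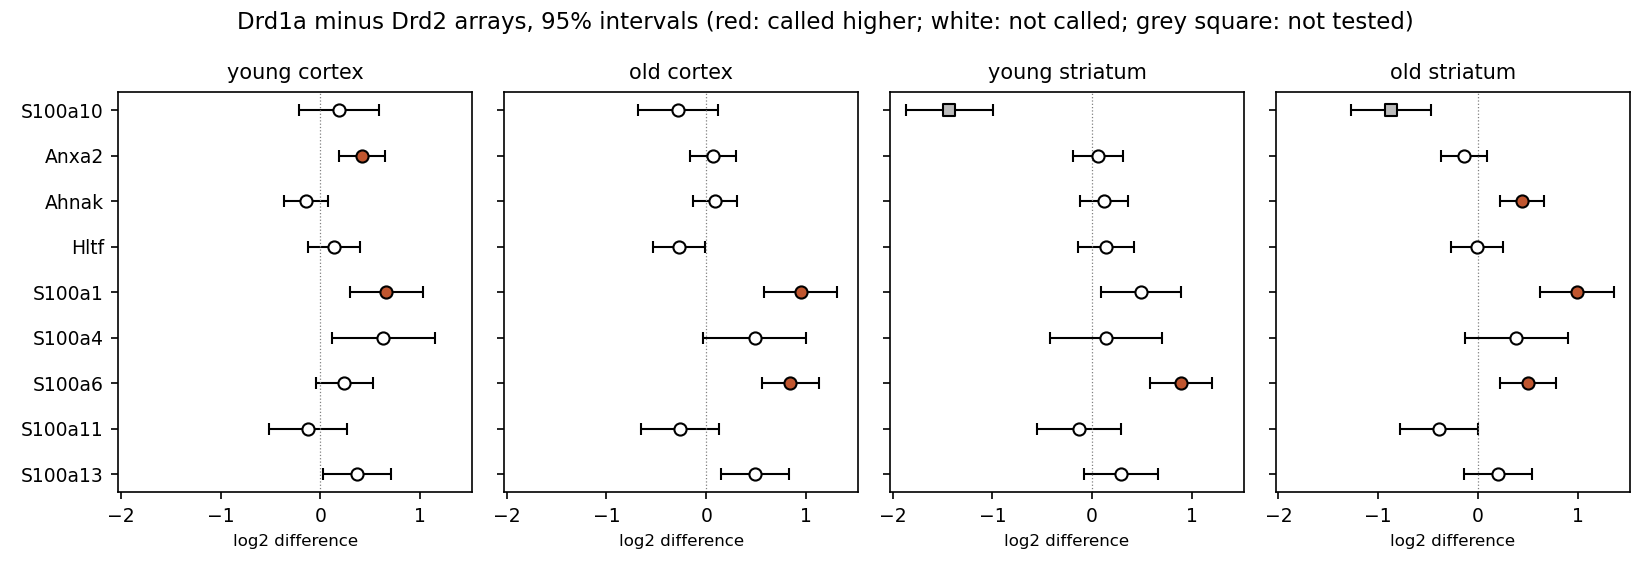
Log2 difference between Drd1a and Drd2 arrays for the 9 members in each region and age, with 95% intervals from the limma fit. Filled red circles are calls higher in Drd1a, open circles were not called, and grey squares are S100a10 in striatum, given as a description. The intervals of the grey squares do not allow for the choice of S100a10 and are not tests. S100a10 lies at -1.43 and -0.87 in striatum, on the other side of 0 from the called members.

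Markers of other cells differed between the same groups. Of all features 12% were called between the cell types in young cortex, 6.48% in old cortex, 3.05% in young striatum and 2.81% in old striatum. Between the regions 19.0% were called in young and 16.1% in old Drd1a cells. The mean of 7 GABAergic interneuron markers ran from 1.19 to 1.61 over the cortex Drd1a arrays and from 0.05 to 0.50 over the cortex Drd2 arrays, and 3 of the 7 were called higher in young and 4 in old cortex Drd1a. In striatum 1 was called higher in young and 2 in old Drd1a arrays. Of 9 astrocyte markers 6 were higher in young and 2 in old cortex Drd1a arrays, 0 were called between the cell types in striatum, and 7 and 8 were lower in striatum than in cortex in young and old Drd1a cells. The oligodendrocyte and cholinergic interneuron lists had lower means in Drd1a than in Drd2 arrays, except in young striatum. Of 9 oligodendrocyte markers 4 were called lower in young and 4 in old cortex Drd1a arrays and 0 were called in striatum, where 0 (young) and 4 (old) had an unadjusted p under 0.05. Of 6 cholinergic interneuron markers 2 were called lower in each cortex comparison, 1 in young striatum and 3 in old striatum, where the median of the 6 differences was -0.41, and 1 (Isl1) was called higher in all 4. S100a10 was lower in Drd1a arrays of striatum at both ages. In young striatum the cholinergic mean was higher in Drd1a than in Drd2 arrays (0.24 against 0.056), as was the oligodendrocyte mean (-0.048 against -0.15). The cholinergic mean includes Isl1, which direct pathway cells also express, while 1 other marker of that list was called lower there. It therefore cannot tell cholinergic from direct pathway RNA. The part of these cells in the S100a10, S100a1, S100a6 and Anxa2 differences was not tested.

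S100a4, an S100 protein studied for its role in cell motility, was spread widely within groups, with SDs from 0.21 to 0.43. It was lower in young striatum Drd1a arrays (-0.39, -0.67 and -0.28) than in young cortex Drd1a arrays (0.99, 0.44, 0.32 and 0.017), by 0.89 log2 units (limma log2 difference -0.89, SE 0.27, adjusted p = 0.0180). The groups did not overlap, but the call was lost without cortex replicate 1 (-0.71, adjusted p = 0.0855) or striatum replicate 2 (-0.78, adjusted p = 0.0865). Its age differences were 0.53 in striatal Drd2 cells (limma adjusted p = 0.273) and 0.77 in striatal Drd1a cells, the latter a description.

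S100a13, which takes part in the release of growth factors and cytokines that lack a signal peptide, was called in no comparison. Its largest tested difference was 0.49 log2 units, higher in old cortex Drd1a than in old cortex Drd2 arrays (95% interval 0.15 to 0.83, limma adjusted p = 0.0734). The old cortex Drd1a arrays held 0.033, 0.29, 0.22 and 0.72 and the old cortex Drd2 arrays 0, -0.13, -0.11 and -0.47, without overlap. Its Pearson r with S100a1, its neighbour on the shared stretch shown above, was 0.56 over 31 arrays, 0.83 over the 8 group means and 0.20 over deviations from the group means. S100a1 with S100a4 had 0.70, S100a1 with S100a6 0.63, and S100a4 with S100a6 0.51 over the arrays, whereas S100a10 had between -0.17 and 0.28 with the other 8. These are descriptions of arrays that share groups and a normalization.

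S100a11, a partner of another annexin, was not called in any comparison, and what its feature measures is uncertain. The feature named S100a11 lies by number between those of Chst9 and Cdh2, which RefSeq places on chromosome 18, whereas it places S100a11 beside S100a10 on chromosome 3. Of 14341 features with both neighbours on 1 chromosome, 99.2% were on that chromosome. Its group means ran from -0.37 in young striatum Drd1a to 0.37 in old cortex Drd2 arrays. The largest tested difference was -0.46 log2 units between striatum and cortex in young Drd1a cells (limma adjusted p = 0.118).

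No measured gene of the wider p11 network was called with age, which is near the share over all features. Of 18 further genes for partners and cargo of the complex 14 were measured. By limma 0 of them were called in striatal Drd2, cortical Drd1a or cortical Drd2 cells, with 0, 2 and 1 at an unadjusted p under 0.05. Of all features 5.70%, 0.453% and 3.63% were called in that order, so nothing is read from 0 of 14. In young cortex Htr1b, a serotonin receptor that p11 binds, was lower in Drd1a than in Drd2 arrays (limma log2 difference -0.96, adjusted p = 0.0003), and so was Htr1d (-0.53, adjusted p = 0.0029). Dlc1 was higher there (0.55, adjusted p = 0.0001). In old cortex Htr1b was again lower in Drd1a arrays (-0.65, adjusted p = 0.0262) and Plaur, the urokinase receptor, higher (0.30, adjusted p = 0.0373), and in old striatum Dlc1 was lower (-0.35, adjusted p = 0.0284). These last 3 calls were lost on leaving out any of 4, 4 and 6 of the 8 arrays, whereas the 3 in young cortex held without any 1 array. Of all features 12% were called between the cell types in young cortex, 6.48% in old cortex and 2.81% in old striatum. For the regions the shares were 19.0% in young Drd1a, 16.1% in old Drd1a and 11.3% in old Drd2 cells. Between regions Htr1b was higher in striatum in young (0.94) and old (0.86) Drd1a cells, and Dlc1 was lower there (-0.85 and -0.87), all called and held without any 1 array. Dlc1 was also lower in striatum in old Drd2 cells (-0.34, limma adjusted p = 0.0123), a call lost without old cortex Drd2 replicate 1 (-0.29, adjusted p = 0.0580). Medians of the 14 genes lay between -0.015 and 0.051 in the 3 tested age comparisons, where those of all features lay between -0.023 and 0.039.

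Some other annexins rose with age in Drd2 cells. All 11 listed annexins were measured. Of all features 5.70% were called with age in striatal Drd2, 3.63% in cortical Drd2 and 0.453% in cortical Drd1a cells. Anxa7 and Anxa5 were called in striatal Drd2 cells (limma log2 differences 0.70 and 0.65), and Anxa5, Anxa7 and Anxa4 in cortical Drd2 cells (0.76, 0.67 and 0.63), with 0 called by limma in cortical Drd1a cells, where 3 had an unadjusted p under 0.05. Both Anxa7 calls held without any 1 array, and the Anxa5 calls were lost without 3 (striatum) and 1 (cortex) and the Anxa4 call without 5 of the 8 arrays. Of 8 other S100 genes S100b rose in striatal Drd2 cells (0.60, adjusted p = 0.0231), a call lost without any of 4 of the 8 arrays, and it is also an astrocyte marker. S100a3, which lies beside S100a4, was 0.91 log2 units higher in old striatum Drd1a than in old striatum Drd2 arrays (limma adjusted p = 0.0006).

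Genes known to control p11 include Bdnf, the interferon gamma receptor genes and the glucocorticoid receptor gene Nr3c1. Of 10 measured, 0 were called with age by limma in striatal Drd2, cortical Drd1a and cortical Drd2 cells, with 1, 2 and 1 at an unadjusted p under 0.05. The shares of all features called there were 5.70%, 0.453% and 3.63%, so nothing is read from 0 of 10. Nr3c1 was lower in young striatum Drd1a than in young striatum Drd2 arrays (limma log2 difference -0.50, adjusted p = 0.0268), a call lost without any of 4 of the 7 arrays, and Ifngr2 was higher in young cortex Drd1a arrays (0.62, adjusted p = 0.0022). Of 7 measured L-type calcium channel subunit genes Cacnb1 fell with age in striatal Drd2 cells (-0.34, adjusted p = 0.0002). In young cortex, where 12% of all features were called, Cacnb2, Cacna1c and Cacnb1 were lower in Drd1a arrays (-0.62, -0.61 and -0.34). Of 18 measured genes that flank the members Chtop, beside S100a1, fell with age in striatal (-0.31) and cortical (-0.30) Drd2 cells, and Gyg, beside Hltf, rose in cortical Drd2 cells (0.52), all called in limma. The Chtop calls were lost without any of 2 (striatum) or 5 (cortex) of the 8 arrays and the Gyg call without 1.

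By Pearson r over the 31 arrays, among 13418 named features, the patterns most like that of S100a10 were those of Slc35f1 (0.785), Wipf2 (0.784), Dmd (0.733), Myo5a (0.732) and Specc1l (0.717). The most opposed were Efcab1 (-0.780), Cmc2 (-0.746), Nudt18 (-0.743), Rnd3 (-0.737) and Crabp1 (-0.723). For the 5 most alike r lay between 0.83 and 0.97 over the 8 group means. Over deviations from the group means it lay between -0.04 and 0.52, the highest being Specc1l. For the 5 most opposed r lay between -0.92 and -0.85 over the group means. Over deviations it lay between -0.39 (Efcab1) and 0.04. The likeness was thus larger between groups than within them, though not absent within them for Specc1l and Efcab1. No p is given, since the arrays share group effects and a normalization.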

How the data were processed

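Ribosome-bound RNA of Drd1a or Drd2 cells was hybridised to 31 mouse exon arrays. The submitters' processing notes name RMA (robust multi-array averaging) and build mm8, and their test is not stated there. The deposited values are log2 signals that the authors set relative to the median of each feature, so no absolute level or signal over background is kept and a filter on dim features was not possible. Of the 31 deposited columns 3 hold a cell that lost its decimal point, and are recorded with the unit other. These 3 cells and 1 empty cell, none in a member, were set to missing.

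The platform's gene table named the features: 14793 of 16345 had 1 symbol, 814 had several and 738 were not listed, and 14744 matched RefSeq by Entrez identifier. Groups were taken from the sample labels. Differences were fitted with limma 3.58.1 (R 4.3.3) to the 31 arrays together, a mean for each group, leaving 23 residual degrees of freedom. Tests were two-sided, with Benjamini-Hochberg adjustment over 16345 features, and calls needed an adjusted p under 0.05 and a change of 1.2-fold or more, as the submitters' design text sets. The model was tested on simulated data. The members, gene lists, marker lists and tests were chosen with earlier results of these data known. The rule for names took the members, up to 3 called genes per list and comparison, the 5 features most like and most unlike S100a10, and Drd1 and Drd2. The tables of all other called markers were summarised, and the markers named as examples were chosen after their values were seen. Alternatives were quantile normalization, centring of arrays on their medians, only the compared arrays in the fit, a replicate block, array weights, a 1.5-fold threshold, a covariate for the first residual component, leaving out the 6 arrays with a median above 0.05, and leaving out each array. Replicate numbers were not used to pair samples in the main fit. In 0 of 12 comparisons were all correlations of same-numbered arrays over 0.1 (range -0.356 to 0.352). This rule cannot exclude pairing, because any low correlation in a comparison fails it. The main fit treats all arrays as independent, and the labels do not state whether any mouse gave both tissues.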

Additional observations from a re-analysis of the deposited data

Results flagged for a closer look

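In 4 of 63 groups of 4 arrays, 1 array lay far from the others by Dixon's test of the gap over the range, where chance gives about 1 in 20. S100a10 was 0.033 in old cortex Drd2 replicate 1, where the other 3 arrays lay between 0.41 and 0.49. Hltf was -0.042 in old cortex Drd2 replicate 3, where the other 3 lay at 0.44. S100a11 was -0.13 in old cortex Drd2 replicate 2, and Ahnak was -0.30 in young striatum Drd2 replicate 2. The 3 flags in old cortex Drd2 arrays fell on 3 different replicates.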

How the results depend on the processing

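The deposited values keep no absolute level, so signal over background could not be weighed, and groups of 3 or 4 arrays limit the calls. Leaving out single arrays aside, 888 recomputed values counted as the same, 125 lost the call, 2 gained it, 36 moved and 0 reversed. For a tested gene, the same means the same side of the threshold, with the same direction where called. For a count of members it allows a change of up to 1.5-fold, and for an untested difference a shift under 1 SD. The rise of S100a10 in striatal Drd2 cells stayed called under all 8 alternatives and without any 1 array (0.94 to 1.23 log2 units under the alternatives), and its rise in cortical Drd2 cells under the same 8 alternatives, though not without every array.

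In striatal Drd2 cells the members called with age fell from 2 to 1 with quantile normalization, centred arrays, no arrays above a median of 0.05, only the compared arrays, or the 1.5-fold threshold. In cortical Drd1a cells they fell from 1 to 0 with quantile normalization, centred arrays or only the compared arrays. In cortical Drd2 cells they fell from 3 to 1 with the replicate block, no arrays above a median of 0.05, only the compared arrays, or the 1.5-fold threshold, S100a10 being the 1 kept. Between cell types they fell from 2 to 1 in young cortex (1.5-fold) and from 3 to 1 in old striatum (only the compared arrays, or 1.5-fold). Between regions they rose from 3 to 5 in young Drd1a cells with array weights and fell from 3 to 0 in old Drd1a cells with the 1.5-fold threshold. In young Drd2 cells they fell from 1 to 0 with quantile normalization, no arrays above a median of 0.05, or only the compared arrays. In old Drd2 cells they went from 1 to 3 with quantile normalization, to 2 with centred arrays, the residual component or only the compared arrays, and to 0 without the arrays above 0.05. The S100a10 difference there was called at 0.73 with quantile normalization and at 0.52 with only the compared arrays. Where fewer arrays or a higher threshold were not the change itself, the cause was not tested.

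With each array left out in turn, members called with age ran from 1 to 2 in striatal Drd2, 0 to 1 in cortical Drd1a and 0 to 2 in cortical Drd2 cells. Between cell types they ran from 1 to 2 in young cortex and in old striatum. Between regions they ran from 1 to 3 in young Drd1a, 0 to 1 in young Drd2 and 0 to 2 in old Drd2 cells. The S100a10 cortical Drd2 rise ran from 0.63 to 0.83. The replicate block ended 3 member calls: Anxa2 (adjusted p = 0.0566) and Hltf (0.0645) in cortical Drd2 cells with age and S100a6 (0.0584) between the cell types in old striatum were lost. Of the 10 genes most like or unlike S100a10, 5 were kept with centred arrays, 2 with Spearman's rank correlation and 6 with quantile normalization.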
